A study of Mus musculus with 8 samples.

Results

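Integrin subunits with known parts in mast cell adhesion and homing were followed in resting bone marrow–derived mast cells (BMMCs). They were chosen by gene symbol, and all 10 (*Itga2*, *Itga4*, *Itga5*, *Itgae*, *Itgal*, *Itgav*, *Itgb1*, *Itgb2*, *Itgb3* and *Itgb7*) were among the 24059 symbols of the count files. BMMCs are mast cells grown in culture from whole bone marrow, here of C57BL/6 mice aged 6 to 8 wk kept in IL-3 for at least 4 wk. They were transfected with Cas9-gRNA ribonucleoproteins (RNPs) carrying either a scrambled guide (Scrambled, genotype given as *Zc3h12a* WT, n = 4) or guides against *Zc3h12a*, the gene of the RNase Regnase-1 (*Zc3h12a* RNP, genotype given as *Zc3h12a* KO, n = 4). RNA was taken 1 wk later without stimulation, so both groups had gone through electroporation with Cas9. Cells of 4 mice were used, and samples of 1 replicate number were compared as a pair, although the labels do not say that a number marks a mouse.

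Integrins are receptors made of an α and a β subunit, and each α chain reaches the cell surface only with a β partner. β7 pairs with α4, which binds MAdCAM-1 and VCAM-1 on gut endothelium, or with αE, which binds E-cadherin on epithelium. β1 pairs with many α chains that bind fibronectin, collagen or VCAM-1, β2 with αL to bind ICAMs, and β3 with αV or αIIb to bind RGD ligands such as vitronectin and fibrinogen. Mast cell progenitors are known to need the α4 and β7 chains to enter the intestine, and mature mast cells hold on to matrix proteins through β1 and β3 integrins.

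The sequences that define the groups are the guides, written 5′ to 3′ without the PAM. The targeting guides matched the forward strand of GRCm39 within *Zc3h12a*, the 1st in exon 4 and the others in exon 2 of the 6 exons of its canonical transcript.
crRNA 1, chr4:125014763-125014782 (PAM AGG): caccactccgtcggattcga
crRNA 2, chr4:125020411-125020430 (PAM AGG): ttgcttccgtcgatgaccac
crRNA 3, chr4:125020811-125020830 (PAM GGG): ggacaggcttcgttccacaa
Scrambled crRNA: ggttcttgactaccgtaatt
The scrambled guide had 0 perfect matches in this genome. Edited cells were not cloned or sorted, as far as the sources used here say, so each sample is a bulk population in which the share of edited cells is not known from the counts.

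Between 19610240 and 33986762 reads were counted per Scrambled sample and between 23712029 and 28564062 per *Zc3h12a* RNP sample. Levels are given in CPM, which are counts scaled to the size of the library after TMM normalization. *Zc3h12a* itself had a mean ± SD of 34.8 ± 6.65 CPM with Scrambled and 33.2 ± 5.91 CPM with *Zc3h12a* RNP (n = 4 samples per group), so its mRNA level did not tell the groups apart and does not check the labels. Mast cell markers made up 60545 to 70096 CPM in Scrambled and 57186 to 61030 in *Zc3h12a* RNP samples, summed over 14 genes. The 5 neutrophil markers listed in the files summed to at most 0.523 CPM in any sample, the 12 macrophage and monocyte markers to 13.2 to 18.7, and the 9 T and NK cell markers to 1.17 to 7.47. This last list was led by *Cd3e*, with 13 to 119 reads per sample, while *Cd8a* was at 0 in all 8 samples. The 9 dendritic cell markers summed to 6.20 to 25.9 CPM and the 9 stromal markers to 2.90 to 13.5. Other lists were not low. The 4 basophil markers summed to 445 to 542 CPM, led by *Cd200r3*, and the 6 endothelial markers to 703 to 876, led by *Pecam1*. The 9 megakaryocyte and platelet markers summed to 1857 to 2576 CPM, led by *Itga2b*. In bulk RNA, fewer cells of a type and less RNA per cell cannot be told apart.

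The β subunits *Itgb7*, *Itgb1* and *Itgb2* stood highest, and *Itgb7* was far above the rest. Per kb of annotated exon, a scale on which genes can be compared, *Itgb7* was at 183 ± 29.4 CPM per kb (mean ± SD over 8 samples), or 77.2% of the summed level of the 10 genes, and stood above 98.9% of all genes tested with a known length. *Itgb1* followed at 33.8 ± 5.42 CPM per kb. *Itgb2* (8.12 ± 2.39), *Itga5* (5.57 ± 1.17) and *Itgav* (3.71 ± 0.501) came next, and *Itgb3* (1.76 ± 1.10) and *Itga4* (0.821 ± 0.343) were lower. *Itgal* (0.248 ± 0.0688), *Itgae* (0.126 ± 0.0614) and *Itga2* (0.0734 ± 0.0300) closed the order. Each gene was above the next in all 8 samples, except that *Itgav* was above *Itgb3*, *Itgb3* above *Itga4*, and *Itgal* above *Itgae* in 7 of 8. *Itgae* and *Itga2* had 12 reads each in Scrambled 1, 8 each in Scrambled 2, and 21 against 22 in *Zc3h12a* RNP 4. Their order in those samples comes from the exon length alone and is not firm. With the length of the canonical transcript in place of all exon bases the order of means was the same. *Itga5* then exceeded *Itgav*, and *Itgb3* exceeded *Itga4*, in only 4 of 8 samples, so neither of these neighbours can be ranked firmly. On that length *Itgb2* was above *Itga5* in 6 of 8 samples, and *Itgav* above *Itgb3* in all 8.

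**Figure D1:**
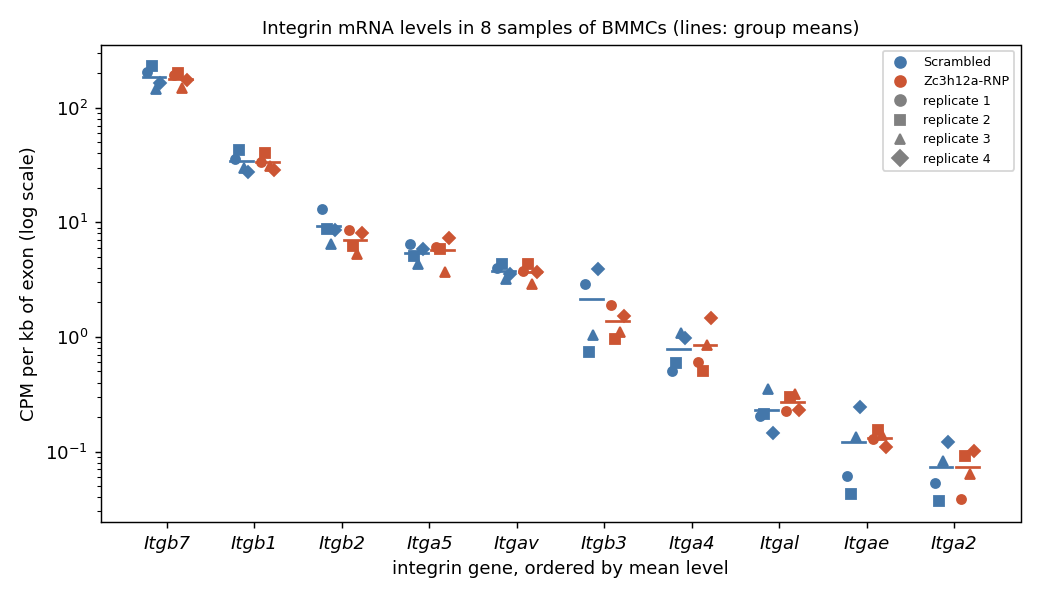
Level of each integrin gene in CPM per kb of exon on a log axis, with 1 marker per sample, colour for the RNP, shape for the replicate number and lines for group means. *Itgb7* sits between 146 and 230 in all samples, *Itga2* at or under 0.120, and the colours overlap for every gene.

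*Itgb7* (chr15:102124429-102140379, minus strand, 15 exons in its canonical transcript) encodes the β chain of the gut-homing integrins. Its level in replicates 1 to 4 was 597, 667, 425 and 475 CPM with Scrambled, against 564, 581, 433 and 509 CPM with *Zc3h12a* RNP. Replicates 1 and 2 were high and replicates 3 and 4 low with either RNP, and the groups overlapped. The log2 fold change was -0.04 ± 0.08 (standard error), with a 95% interval of -0.23 to 0.16, and did not pass in the quasi-likelihood test of edgeR (adjusted p = 0.962).

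The α partners of β7 were at far lower levels. *Itga4* (chr2:79085660-79163467, plus strand), the chain shared by the receptors for MAdCAM-1 and VCAM-1, was at 8.37, 9.83, 18.0 and 16.3 CPM with Scrambled. With *Zc3h12a* RNP its level was 10.2, 8.36, 14.2 and 24.7 CPM. It ran opposite to *Itgb7*, with replicates 3 and 4 above replicates 1 and 2 in both groups. The RNPs differed by 0.08 ± 0.16 on the log2 scale, with 2 pairs higher and 2 lower. Of its exon bases, 20.8% (3481 of 16732) also belong to exons of *Cerkl* on the opposite strand, and the strand setting of the read counting is not given in the sources used here, so part of these reads could come from *Cerkl*. *Itgae* (chr11:72981409-73039917, plus strand), the epithelium-binding chain, had 8 to 32 reads per sample. Its level was 0.380, 0.267, 0.827 and 1.52 CPM with Scrambled and 0.798, 0.953, 0.864 and 0.682 CPM with *Zc3h12a* RNP. The widest spread lay within Scrambled, whose lowest and highest samples enclosed all *Zc3h12a* RNP samples. The log2 fold change of *Itgae* was 0.42 ± 0.66, with an interval of -1.13 to 1.97. It was 0.02 without replicate 2 and 0.96 without replicate 4.

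*Itgb1* (chr8:129411876-129460618, plus strand), the common β chain of matrix receptors, was at 214, 255, 178 and 165 CPM with Scrambled. In the *Zc3h12a* RNP samples it was at 202, 239, 185 and 173 CPM. Samples of a number lay close together, and the largest difference within a pair was 0.09 on the log2 scale. Its log2 fold change was -0.01 ± 0.08, with an interval of -0.19 to 0.16, a narrow one among the 10 genes. *Itga5* (chr15:103252713-103275270, minus strand), which with β1 forms the classical fibronectin receptor, was at 34.2, 27.3, 22.9 and 31.4 CPM with Scrambled and 32.2, 31.2, 19.5 and 38.7 CPM with *Zc3h12a* RNP. Replicate 3 was the lowest in both groups. Its log2 fold change was 0.05 ± 0.11. *Itga2* (chr13:114969617-115068636, minus strand), the collagen-binding chain, had only 8 to 22 reads per sample. Its levels ran from 0.267 to 0.857 CPM with Scrambled and from 0.277 to 0.714 CPM with *Zc3h12a* RNP, and the log2 fold change of 0.03 ± 0.62 had an interval of -1.43 to 1.48. Of the exon bases of *Itga2*, 6.2% (444 of 7133) also belong to exons of *Mocs2* on the opposite strand. With the strand setting not given, part of these few reads could come from *Mocs2*.

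*Itgav* (chr2:83554403-83637260, plus strand) encodes an α chain that binds RGD ligands with several β partners. Of its exon bases, 5.1% (634 of 12334) also belong to exons of the noncoding *Gm13684* on the opposite strand. *Itgav* was at 49.2, 53.0, 39.4 and 43.5 CPM with Scrambled and 46.4, 53.1, 35.6 and 45.7 CPM with *Zc3h12a* RNP. It was the steadiest of the 10 genes, with a range over the 8 samples of 0.58 on the scale of log2 CPM with a prior count of 2, and had a log2 fold change of -0.04 ± 0.08. Its partner *Itgb3* (chr11:104498826-104561302, plus strand) had the widest range on that scale, 2.38, although by the ratio of highest to lowest CPM the sparsely counted *Itgae* was wider (5.71-fold against 5.27-fold). *Itgb3* was at 19.0, 4.90, 6.85 and 25.8 CPM with Scrambled and at 12.7, 6.37, 7.36 and 10.1 CPM with *Zc3h12a* RNP. Replicates 1 and 4 were high in both groups, and Scrambled 4 was the highest of the 8 samples. The log2 fold change of -0.40 ± 0.27 (adjusted p = 0.960, edgeR) came with differences of -0.58, 0.37, 0.10 and -1.35 within pairs 1 to 4. It was -0.06 without replicate 4 and -0.26 without replicate 1, but -0.58 without replicate 2 and -0.61 without replicate 3.

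*Itgb2* (chr10:77366086-77401542, plus strand), the β chain of the leukocyte integrins that bind ICAMs, was the 1 gene of the 10 that was lower in every pair. Its level was 42.4, 28.5, 20.8 and 27.7 CPM with Scrambled, and 27.9, 20.2, 17.2 and 26.1 CPM with *Zc3h12a* RNP. Replicate 1 was the highest and replicate 3 the lowest in each group, and the groups overlapped. The differences within pairs 1 to 4 were -0.61, -0.49, -0.28 and -0.09 on the log2 scale. Its log2 fold change of -0.37 ± 0.10 (interval -0.61 to -0.13) did not pass in edgeR, with an adjusted p of 0.596 (unadjusted p of 0.00853). Over 13 alternative analyses the log2 fold change stayed between -0.46 and -0.24. Its adjusted p was at or under 0.05 in 1 of them, 0.0386 in limma after the replicate effect was removed beforehand, a step that leaves the test with more degrees of freedom than the samples have. In the others it was 0.366 or more. *Itgal* (chr7:126895432-126934320, plus strand), the α chain that makes LFA-1 with β2, was at 1.33, 1.40, 2.32 and 0.952 CPM with Scrambled. It was at 1.49, 1.95, 2.10 and 1.53 CPM with *Zc3h12a* RNP. These levels rest on 20 to 59 reads, and the log2 fold change was 0.29 ± 0.40 with an interval of -0.64 to 1.22.

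All 10 genes passed the filter on low counts. At a log2 fold change beyond 0.5 and an adjusted p at or under 0.05, 0 of them were called between the RNPs by edgeR, DESeq2 or limma, and 0.0% of the 14934 genes tested were called in the edgeR fit. DESeq2 gave no adjusted p for *Itga2*, *Itgae* and *Itgal*, so it could not call them. Over all genes, DESeq2 called 8 higher and 52 lower, and limma with the replicate block called 0 higher and 1 lower. At an unadjusted p at or under 0.05 there was 1 of the 10 (*Itgb2*), where 6.17% of all genes passed in either direction and 4.05% were lower. It was also the 1 gene with the same sign in all 4 pairs, as 13.5% of all genes were, with 8.54% lower in all 4. The groups did not overlap for 0 of the 10, against 0.924% of all genes. The fold change was above 0 for 5 genes and below 0 for 5, with a median of 0.01 on the log2 scale where that of all genes was 0.04.

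**Figure D2:**
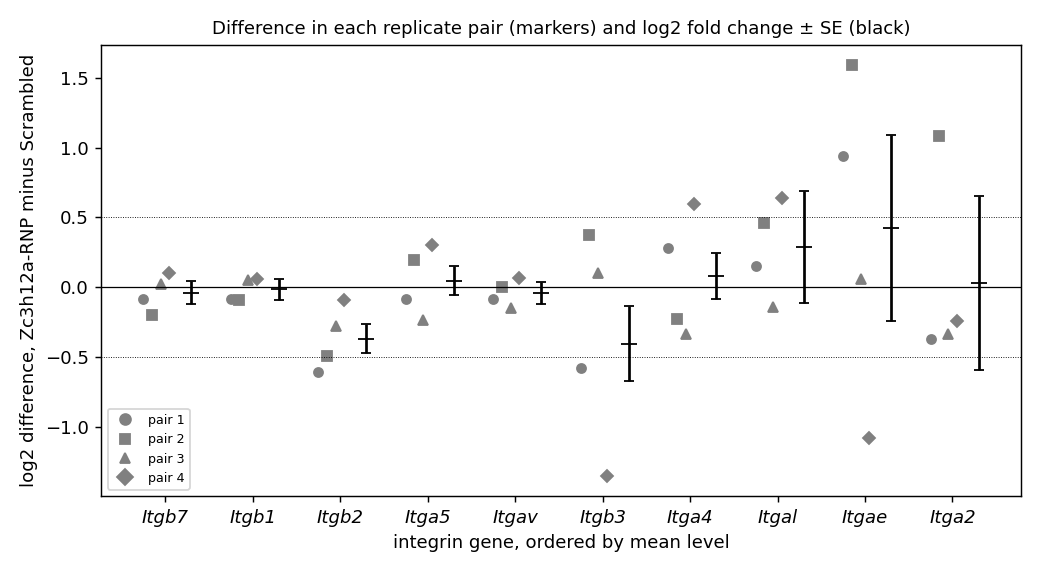
Difference between the RNPs on the log2 scale, *Zc3h12a* RNP minus Scrambled, for each replicate pair (grey markers) and as the fitted log2 fold change with its standard error (black). *Itgb2* is the gene with all 4 pairs below 0, and the wide bars belong to *Itga2*, *Itgae* and *Itgal*, which have few reads.

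For most of these integrins, levels spread further over the replicate numbers than between the RNPs of a pair. In an F test of the replicate number in the same edgeR fit, 7 of the 10 genes passed at an adjusted p at or under 0.05, where 28.0% of all genes passed and 42.1% of the 9777 genes with a log2 CPM above 2. These were *Itga4* (adjusted p = 0.0164), *Itgb2* (0.0186), *Itgb1* (0.0268), *Itga5* (0.0341), *Itgb3* (0.0349), *Itgb7* (0.0368) and *Itgav* (0.0477), while *Itga2*, *Itgae* and *Itgal* did not pass. The means of the replicate numbers spanned 1.52 on the log2 scale for *Itgb3*, 1.14 for *Itga4* and 0.54 for *Itgb7*. For 9 of the 10 genes this span exceeded the largest difference between the RNPs within a pair, and the exception was *Itgae*. For *Itga2* the excess was slight (1.10 against 1.09). The share over all genes was not computed, so this count does not set the integrins apart. The number of genes that passed depended on the samples, with 1 of the 10 without replicate 1, 4 without replicate 2, 2 without replicate 3 and 6 without replicate 4. The share of all genes that passed was then lower too, at 9.62%, 16.1%, 9.97% and 19.3%. *Itgb3* passed in all 10 alternative analyses of the replicate number, *Itga4* in 9 and *Itgb2* in 8, but *Itgb7* in 3, and *Itgav* and *Itgb1* in 2 each. Whether the replicate number stands for the mouse, the culture or the handling cannot be told apart.

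**Figure D3:**
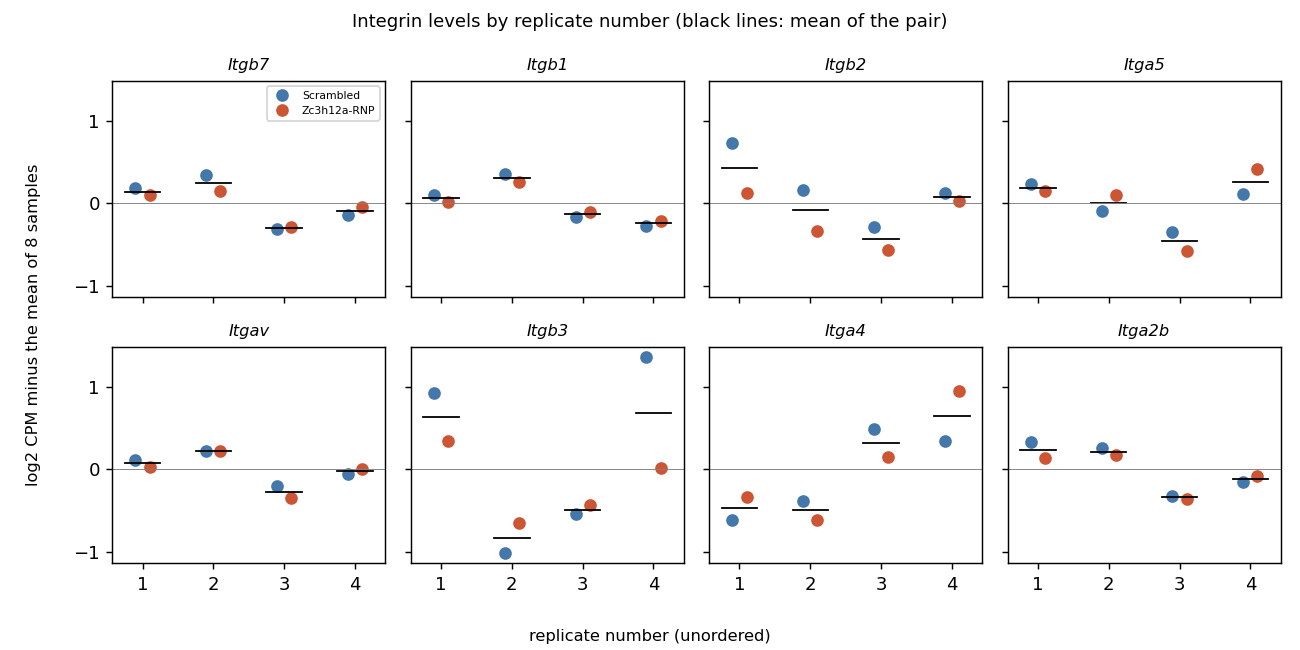
Log2 CPM of the 7 genes that differed by replicate number, and of *Itga2b*, minus the mean of the 8 samples, with 1 panel per gene, 2 points per replicate number and a line at their mean. *Itgb7*, *Itgb1* and *Itgav* are high in replicates 1 and 2, *Itga4* in replicates 3 and 4, and *Itgb3* in replicates 1 and 4.

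The balance of partner subunits was compared as the ratio of their levels per kb of exon within a sample. These ratios were taken from log2 CPM with a prior count of 2, which raises them a little where the α chain has few reads. Measured this way, *Itga4* was at 0.00245 to 0.00842 of *Itgb7* and at 0.0126 to 0.0511 of *Itgb1*, so the mRNA of β7 was in large excess over that of its α4 partner in every sample. *Itgae* added at most 0.00157 of the *Itgb7* level. The *Itgav* to *Itgb1* ratio was the most even, from 0.0931 to 0.128. *Itga5* stood at 0.118 to 0.252 of *Itgb1*. *Itgav* was above *Itgb3* in 7 samples, by up to 5.72-fold, and at 0.904 of it in Scrambled 4. With the canonical length *Itgav* was the higher in that sample too, at 5.89 against 4.46 CPM per kb. The ratio of *Itgal* to *Itgb2* was higher with *Zc3h12a* RNP in 4 of 4 pairs, by 0.64 on the log2 scale. It was 0.0163, 0.0255, 0.0566 and 0.0182 with Scrambled and 0.0276, 0.0491, 0.0620 and 0.0302 with *Zc3h12a* RNP. Flipping signs of the pair differences, an exact test with both tails, gave p = 0.125, the smallest that 4 pairs allow, and 1.00 after Benjamini-Hochberg adjustment over the 8 ratios. For the other 7 ratios the exact p was 0.625 or more.

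**Figure D4:**
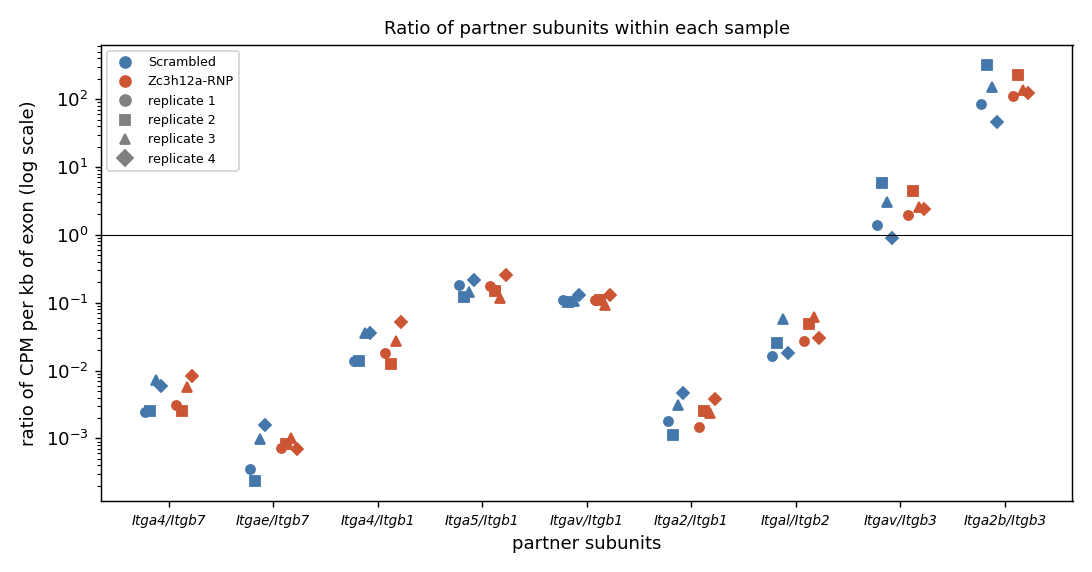
Ratio of the levels per kb of exon of 2 partner subunits within each sample, from log2 CPM with a prior count of 2. The axis is logarithmic, with colour for the RNP and shape for the replicate number. The ratios of α chains to *Itgb7* and *Itgb1* lie far below 1, and the *Itga2b* to *Itgb3* ratio lies between 45.3 and 314.

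Among the other 17 integrin subunits, *Itga2b* stood out. It encodes αIIb, the platelet partner of β3, and at 199.7 ± 35.7 CPM per kb (mean ± SD over 8 samples) it was close to *Itgb7* and above 99.0% of genes. Its level was 2026, 1932, 1292 and 1450.4 CPM with Scrambled and 1781, 1813, 1261 and 1527 CPM with *Zc3h12a* RNP, a log2 fold change of -0.06 ± 0.08. Replicates 1 and 2 were above replicates 3 and 4, the order seen for *Itgb7* and *Itgb1* and not for its partner *Itgb3*. Per kb and with the prior count of 2, *Itga2b* exceeded *Itgb3* by 45.3- to 314-fold, a ratio added after the level of *Itga2b* was seen. Of the 17 subunits, 11 were tested, of which 6 had a fold change above 0 and 5 below, and 0 passed even at an unadjusted p of 0.05. The myeloid α chains that share β2, *Itgam* and *Itgax*, had at most 10 and 15 reads per sample and were not tested.

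The integrins with the fewest reads, *Itga2* and *Itgae*, were at levels near the mean of the T and NK cell markers and that of the stromal markers. Within pairs 1 to 4, *Itga2* differed by -0.37, 1.09, -0.34 and -0.24 on the log2 scale and *Itgae* by 0.94, 1.59, 0.06 and -1.08. Of the 9 T and NK cell markers in the files only 2 were tested, and their median differed by 0.74, 2.26, -0.60 and -1.12. The median of the 6 tested stromal markers, of 9 in the files, differed by 0.71, 2.89, -0.15 and -0.64. Pair 2 was the highest and pair 4 below 0 in each of them, while *Itga2* in pair 1 and *Itgae* in pair 3 had the sign opposite to the others. *Itgal* did not follow, with 0.16, 0.46, -0.14 and 0.64. A high pair 2 was not particular to these lists. The median of the 3 tested dendritic cell markers differed by 0.77, 2.89, -0.06 and -1.77. That of the 6 tested megakaryocyte and platelet markers was not highest in pair 2. Nor was that of the 3 tested macrophage and monocyte markers, at 0.26, -0.17, 0.24 and 0.46. Scrambled 2 had the fewest genes with any read (18365) and Scrambled 4 the most (20238). Whether this bears on the pair differences was not tested. The mean level of the 9 T and NK cell markers with a known length ran from 0.0412 to 0.256 CPM per kb, led by *Cd3e*, and that of the 9 stromal markers from 0.0393 to 0.182 CPM per kb. *Itga2* (0.0374 to 0.120 CPM per kb) and *Itgae* (0.0428 to 0.245 CPM per kb) lay near the range of these means, and *Itgal* (0.145 to 0.353 CPM per kb) partly above it. The median of the T and NK cell markers was lower than their mean, at 0 to 0.0463 CPM per kb, so that mean rests on few genes. The median of the stromal markers ran from 0.00648 to 0.219 CPM per kb. The part of other cells in these reads was not tested.

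The genes around the integrins gave no call either. Of all 14934 genes tested, 8635 had a fold change above 0 and 6299 below. An unadjusted p at or under 0.05 was reached by 6.17% of them, and 4.05% were lower. Of 39 proteins tested that bind integrin tails or switch integrins on, 22 had a fold change above 0 and 17 below, with a median of 0.02. At an unadjusted p at or under 0.05 these were *Flna* (filamin A, which holds integrins inactive, 0.31 ± 0.10) and *Fhl2* (0.54 ± 0.17) on the higher side, and *Vcl* (vinculin, which ties talin to actin, -0.26 ± 0.09) and *Cytip* (-0.30 ± 0.10) on the lower. *Tln1*, which encodes the talin that opens integrins and had the highest CPM of this list, was at 967.5 ± 141 CPM with Scrambled and 1096 ± 179 with *Zc3h12a* RNP. Of 17 tetraspanins and membrane partners, 12 were below 0, with a median of -0.05, and 3 had an unadjusted p at or under 0.05, namely *Cd9* (a tetraspanin, -0.36 ± 0.09), *Cd47* (-0.19 ± 0.08) and *Plaur* (the urokinase receptor, -0.52 ± 0.12). *Cd9* was at 727 ± 109.5 CPM with Scrambled and at 563 ± 30.6 with *Zc3h12a* RNP, and its groups did not overlap, as for 0.924% of all genes. Adjusted p-values of these genes were 0.449 or more in edgeR.

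Of the 14 chemoattractant and lipid receptors tested, 8 were above 0 and 6 below. *Ptger3*, a prostaglandin E2 receptor, was at 298 ± 28.9 CPM with Scrambled and 226 ± 19.7 with *Zc3h12a* RNP. Its log2 fold change was -0.40 ± 0.08, with an adjusted p of 0.424 in edgeR. Its groups did not overlap, as for 0.924% of all genes. *C3ar1*, the receptor of complement C3a, was at 0.33 ± 0.09 and *Adora2b*, an adenosine receptor, at -0.31 ± 0.10. Each had the same sign in all 4 pairs, as 13.5% of all genes had. These receptors were named for their low unadjusted p, so such traits add little. The list's median of 0.17 depended on the samples, being 0.02 without replicate 2 and -0.05 without replicate 3. Of 19 integrin ligands tested, 17 were above 0, with a median of 0.36, where 8635 of the 14934 genes were above 0. Their medians by pair were 0.48, 2.18, 0.11 and -0.28, so pair 2 held most of it, and this list holds collagens that are also stromal markers. The 1 ligand with an unadjusted p at or under 0.05 was *Mfge8*, an RGD protein that bridges to αV integrins, at -0.22 ± 0.08. In the TGF-β pathway, which is known to induce αE in mast cells and T cells, 8 of 14 genes were above 0, with a median of 0.02 and 0 at an unadjusted p at or under 0.05. *Tgfb1* was its most abundant gene, at 654 ± 131 CPM with Scrambled and 629 ± 92.9 with *Zc3h12a* RNP.

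Marker lists of the culture had the following fold changes. Of 13 mast cell markers tested, 12 were below 0, with a median of -0.10, where 6299 of the 14934 genes were below 0. At an unadjusted p at or under 0.05 there were 3, where 4.05% of all genes were lower. These were *Tpsb2* (a tryptase, -0.28 ± 0.08), *Hdc* (histidine decarboxylase, -0.75 ± 0.22) and *Srgn* (serglycin, -0.23 ± 0.08). Of the megakaryocyte and platelet markers tested, 4 of 6 were above 0 and *Gp5* had 0.34 ± 0.09. None of the lists held a gene that passed with adjustment in edgeR. Their part in the levels of the integrins was not tested.

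The genes whose pattern over the 8 samples was most like that of *Itgb7* were *Tmem106b*, *Zfp513* and *Rnf14*, with root mean square differences of mean-centred log2 CPM of 0.0468, 0.0480 and 0.0505. Among integrins, *Itga2b* came in place 10, *Itgav* in place 36 and *Itgb1* in place 312. For *Itgb3*, whose own root mean square deviation was 0.770, the nearest were *Slc6a12* (0.311), 5730405O15Rik (0.322) and *Zfp607b* (0.332). These are descriptions of 8 samples.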

How the data were processed

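The authors prepared poly(A) libraries, sequenced them as paired reads, aligned them with HISAT2 2.2.1 to GRCm39 and counted reads per gene with featureCounts 2.0.1. They deposited 1 file per sample of raw counts. The methods name a batch correction, which these whole-number counts do not carry. Strand and multi-mapping settings are not given in the sources used here.

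Counts of all genes were tested in edgeR 4.0.16 (R 4.3.3) with TMM factors, edgeR's group-wise filter on low counts, a model of replicate number and RNP, and the quasi-likelihood test with Benjamini-Hochberg adjustment over 14934 genes. A call needed an adjusted p at or under 0.05 and a change of more than 0.5 on the log2 scale, up or down. A prior count of 2 was added for log2 CPM of single samples and for the ratios of partner subunits. Intervals are 95% intervals of the fitted log2 fold change. Exon lengths came from GENCODE's annotation of GRCm39, where 22497 of 24059 symbols matched 1 gene. Guide sequences came from the study's list of reagents.

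The integrins and the gene lists were chosen with earlier results of these data known. Genes outside the 10 integrins were named by rule: those of a list with an unadjusted p at or under 0.05, at most 5 per list, otherwise the list's most abundant gene, with the 3 genes most like *Itgb7* and *Itgb3*. *Tln1*, *Itgam*, *Itgax*, *Cd3e* and *Cd8a* were named after their values were seen. Alternatives were DESeq2 1.42.0, limma 3.58.1, other scalings and filters, no block, prior counts and leaving out each replicate, with 3 added after seeing the data (bias-adjusted deviances, as the listed legacy fit proved equal to the default and is not counted, the canonical length and the *Itga2b* to *Itgb3* ratio).

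Samples were paired by replicate number, since the study used 4 mice, although the labels do not tie numbers to mice. Deviations of same-numbered samples from group means correlated at 0.595, 0.075, 0.624 and 0.041 over all genes, where samples of other numbers reached 0.398, and at 0.756, 0.717, 0.728 and 0.719 over 9668 genes with a mean log2 CPM above 2, where those of other numbers reached at most 0.137. Replicates of a group all differed by more than sampling noise, with a chi-square of at least 59.2 for each degree of freedom. In simulated data with 200 genes changed by 1 on the log2 scale in this comparison, 94.4% of tested changed genes were recovered at a dispersion of 0.01 and 80.9% at 0.04, in fits of 14774 and 14741 genes. False calls numbered 3 and 5. The simulated counts had no replicate effect, and their dispersions were set rather than estimated from these samples. They check that the fit runs as meant and do not give its power for the integrins.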

Additional observations from a re-analysis of the deposited data

How the results depend on the processing

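Of the 10 integrins, 0 were called between the RNPs under any alternative. *Itga2* and *Itgae* were not tested with a minimum of 10 counts per sample, and DESeq2 gave no adjusted p for *Itga2*, *Itgae* and *Itgal*. Of 128 recomputed fold changes, 117 kept their sign. The size crossed 0.5 in 6 of them, to 0.52 and 0.96 for *Itgae* without replicates 3 and 4, and for *Itgb3* to -0.55 with bias-adjusted deviances, -0.63 with no replicate block, and -0.58 and -0.61 without replicates 2 and 3. *Itga2* was at -0.0010 with bias-adjusted deviances, and *Itgb1* at 0.018 when low counts were not filtered. With a replicate left out, the log2 fold change lay between -0.289 and 0.236 for *Itga2*, -0.099 and 0.245 for *Itga4*, -0.038 and 0.136 for *Itga5*, -0.075 and 0.020 for *Itgav*, -0.091 and 0.072 for *Itgb1*, and -0.113 and 0.076 for *Itgb7*; these changed sign without replicate 1 (*Itgav* 0.020, *Itgb1* 0.052, *Itgb7* 0.020), replicate 2 (*Itga2* -0.289, *Itgav* 0.0068, *Itgb1* 0.072, *Itgb7* 0.076) or replicate 4 (*Itga4* -0.099, *Itga5* -0.038). The integrins that passed the test of the replicate number, 7 in the report, were 3 with RLE size factors (15.8% of all genes), 4 with a minimum of 10 counts per sample (36.4%), 4 when low counts were not filtered (13.8%), 4 with upper-quartile factors (26.2%) and 1 to 6 with a replicate left out. The cause was not tested. Over all genes, calls higher and lower, 0 and 0 in the report, were 8 and 52 with DESeq2, 9 and 31 when low counts were not filtered, and 34 and 79 with the replicate effect removed beforehand and no replicate block. With RLE size factors, limma-trend or bias-adjusted deviances 1 gene was lower, and 3 with a minimum of 10 counts per sample. With a replicate left out, calls were 0 to 80 higher and 0 to 57 lower, the most without replicate 2. Without the replicate block, 0 genes were higher and 0 lower, *Itgb2* was at -0.39 and *Itgb3* at -0.63. *Itga2*, *Itgae* and *Itgal*, at 8 to 59 reads per sample, had the widest intervals of the 10.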

Other observations

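In each of 38 groups of 4 samples, for the levels named in the report, the lowest and the highest sample were compared with their neighbours, and 0 groups held a sample set apart by Dixon's criterion, where chance gives 1.9.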
